A study of Mus musculus with 32 samples.

Results

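Ribosome-bound RNA of Leydig cells was compared with that of Sertoli cells in saline-treated mice. The members are 8 of the 32 arrays of the series, namely the 3 saline immunoprecipitates (IPs) of Cyp17iCre: RiboTag testis and the 5 saline IPs of AMH-Cre: RiboTag testis, and they were taken by their labels alone. In RiboTag mice a ribosomal protein carries a hemagglutinin (HA) tag only in cells that have expressed Cre, so an anti-HA IP of a testis homogenate recovers the ribosomes of those cells with the mRNAs they hold. All mice carried 1 Cre allele and 1 RiboTag allele. The study speaks of adult mice, and their exact age and strain background are not given in the sources used here. Cyp17iCre drives recombination in Leydig cells and AMH-Cre in Sertoli cells, but the study's immunostaining also found tagged cells scattered in the tubules of the Cyp17iCre line. Because Sertoli transcripts were not depleted in the IPs of that line relative to whole testis, the study identified these cells as Sertoli cells. The input, whole-testis RNA before the IP, was available for each line (3 and 5 saline arrays). Outside the main comparison stood 4 IPs of mice given the gonadotropin-releasing hormone antagonist acyline (2 of each line). The study describes acyline for 4 days in Cyp17iCre mice and for 3 days in AMH-Cre mice.

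Leydig cells lie between the seminiferous tubules and make testosterone from cholesterol under the control of luteinizing hormone (LH). Sertoli cells form the epithelium of the tubule, seal it with tight junctions, feed the germ cells, and respond to follicle-stimulating hormone (FSH) and testosterone. The 2 cell types signal to each other: Sertoli cells secrete desert hedgehog and platelet-derived growth factors, whose receptors are found on Leydig cells and their precursors.

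Each value is a log2 RMA level of 1 probe set on an Affymetrix Mouse Gene 1.0 ST array, and a difference is the mean of the Leydig IPs minus the mean of the Sertoli IPs on that scale, so that a positive value is higher in Leydig IPs. A gene was called when limma's adjusted p was under 0.05 and the fold at least 1.5. Equal amounts of RNA were put on each array, so a level is a share of the recovered RNA and not a number of copies per cell. A linear signal of 50 (log2 5.64) was used as the lower limit of detection. Where the mean of the lower group lay under it, the difference or fold is given as "at least", with each array of that group held at the limit or at its own value if higher. The study gives the sizes of these groups in mice, but the labels do not say that each array is a separate mouse, and where arrays share a mouse the p-values measure only the spread between these samples. Cell type, Cre line and anything else that differed between the 2 sets of mice or their arrays cannot be told apart in this comparison. The number of arrays limits the precision of every difference.

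Of 15560 genes tested, 1822 (11.7%) were higher in the Leydig IPs and 2694 (17.3%) were higher in the Sertoli IPs. More genes thus favored the Sertoli IPs, but the larger differences lay on the Leydig side. At 4-fold or more there were 414 Leydig genes (2.66% of those tested) and 291 Sertoli genes (1.87%), at 8-fold 181 and 6, and at 16-fold 84 (0.54%) and 0. With lower groups held at the limit these counts were 384 and 281, 168 and 5, and 79 and 0. The Leydig and Sertoli arrays did not overlap for 4499 of the 4516 called genes, beside 57% of all genes tested. Over all probe sets, arrays of 1 group correlated at 0.99 to 0.993, and Leydig with Sertoli IPs at 0.949 to 0.957.

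**Figure D1:**
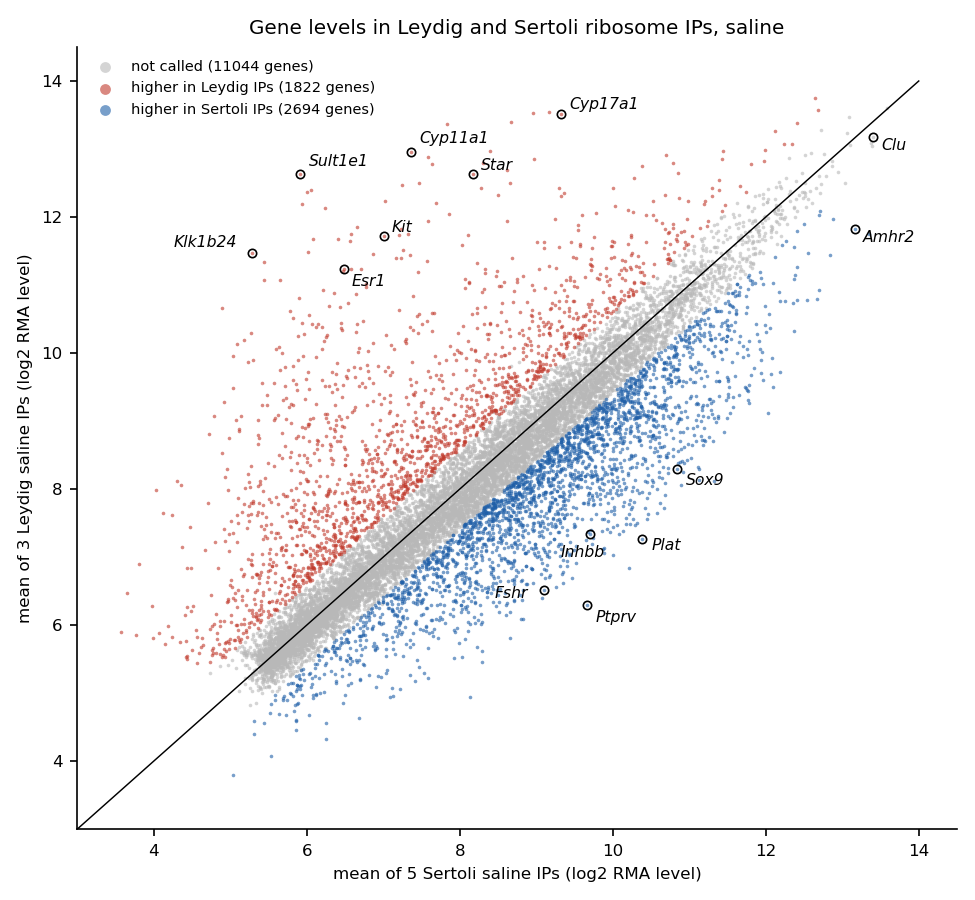
Mean log2 RMA level of each tested gene in the 3 Leydig saline IPs (vertical axis) against the 5 Sertoli saline IPs (horizontal axis), with called genes in red (higher in Leydig) and blue (higher in Sertoli) and the line of equal levels in black. The red points reach much farther from the line than the blue ones: 84 genes pass 16-fold on the Leydig side and 0 on the Sertoli side.

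The 2 sets of 4-fold genes also stood differently against whole testis. The 414 Leydig genes had a median log2 difference between IP and input of 2.56 in the Leydig line and -0.56 in the Sertoli line, and 105 of them lay at least 2-fold below the input in the Sertoli IPs. The 291 Sertoli genes had a median of 2.31 in the Sertoli line and 0.07 in the Leydig line, and only 1 of them lay 2-fold below the input in the Leydig IPs. By these medians the Sertoli genes were at about their whole-testis share in the Leydig IPs, whereas the Leydig genes were under it in the Sertoli IPs. The sets were chosen on the same IPs, so these values are a description. The part of the tagged tubule cells of the Cyp17iCre line, which the study identified as Sertoli cells, in these values was not tested. For 100 of the 414 Leydig genes the mean signal of the Sertoli IPs was under the limit of detection.

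The marker genes of both cell types followed the labels. Lhcgr, the receptor for LH, read 11.85, 11.65 and 11.55 in the Leydig IPs against 5.86, 5.19, 5.26, 5.72 and 4.81 in the Sertoli IPs. All 3 Leydig arrays thus stood far above the 5 Sertoli arrays, by at least 63.1-fold, with 2 of the 5 Sertoli arrays over the limit of detection (limma adjusted p = 1.45e-08). All 10 tested Leydig cell markers of the list were called higher in the Leydig IPs, with a median log2 difference of 4.50, beside -0.09 over all genes. Fshr, the FSH receptor of Sertoli cells, read 6.37, 6.27 and 6.92 in the Leydig IPs against 9.13, 9.14, 9.37, 8.97 and 8.90 in the Sertoli IPs, which was 5.98-fold higher in the latter (log2 -2.58). Sox9, the transcription factor that starts and keeps Sertoli cell fate, read 8.19, 8.27 and 8.44 against 10.94, 10.74, 10.80, 10.89 and 10.85. Of 20 Sertoli cell markers tested, 16 were called higher in the Sertoli IPs and none in the Leydig IPs (19 and 1 at an unadjusted p under 0.05), with a median log2 difference of -2.08. The other 4 were the germ cell survival factor Gdnf (-0.56), the defensin Defb19 (-0.39), the secreted chaperone clusterin Clu (-0.23) and Kitl, the ligand of the Kit receptor (0.46), which had log2 differences under the threshold of 1.5-fold. After quantile normalization 17 of the 20 were called higher in Sertoli IPs and 1 in Leydig IPs.

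**Figure D2:**
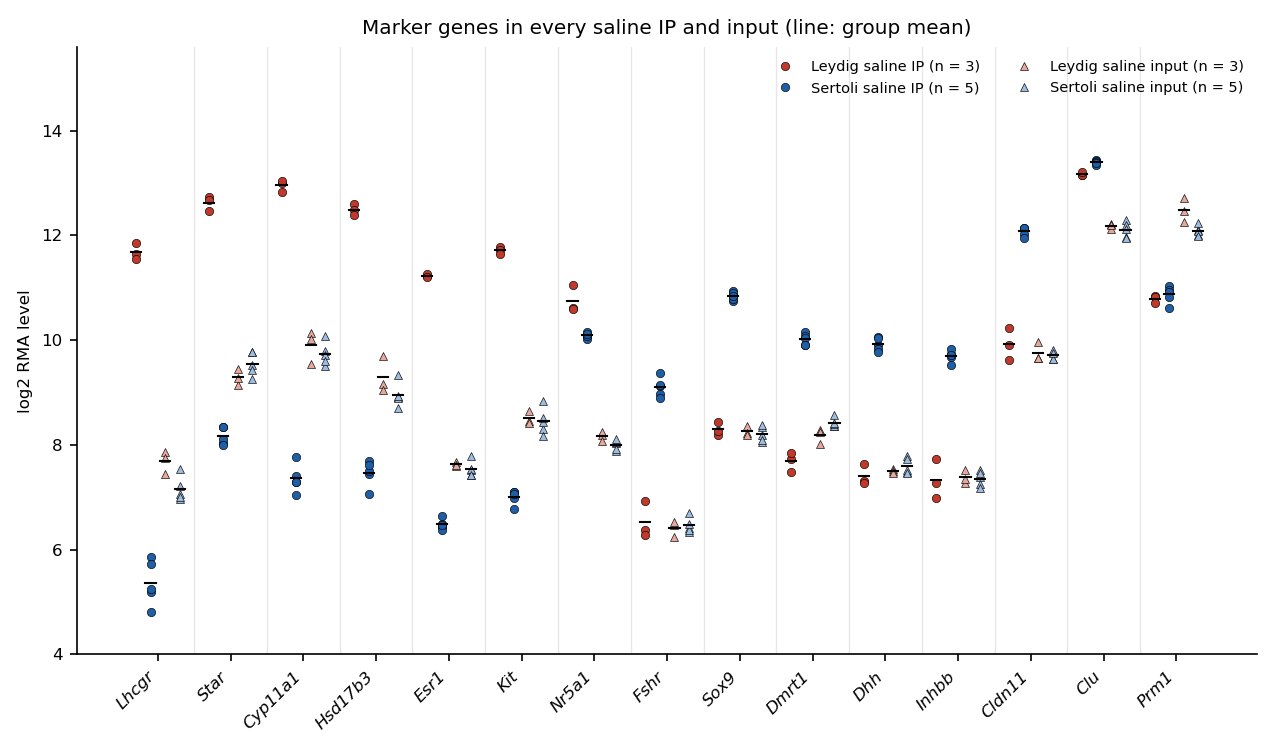
Log2 RMA level (vertical axis) of 15 marker genes in every saline IP (circles) and input (triangles) of the Leydig line (red) and the Sertoli line (blue), with a line at each group mean. Lhcgr to Kit are high in the 3 Leydig IPs and low in the 5 Sertoli IPs, Fshr to Cldn11 show the reverse with the Leydig IPs near their inputs, and Clu and Prm1 differ little between the IPs.

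Most markers of other testis cells differed little between the IPs. None of 18 spermatid markers was called by limma, although 1 was higher in Leydig and 5 in Sertoli IPs at an unadjusted p under 0.05 without the fold threshold: protamine 1 (Prm1) had means 10.79 and 10.87, and protamine 2 (Prm2) had 12.83 and 12.86, in the Leydig and Sertoli IPs. The mean level of this list was 10.09 to 10.15 in the Leydig IPs against 10.05 to 10.35 in the Sertoli IPs, against 11.67 to 11.80 in the inputs. Of 20 markers of spermatogonia and spermatocytes, 4 were higher in the Leydig IPs and 1 in the Sertoli IPs, with mean levels of 8.80 to 8.95 and 8.53 to 8.63. These were Kit (log2 4.71), which Leydig cells themselves express, the zinc finger factor Zbtb16 (1.99), and the chromosome axis proteins Sycp3 (0.66) and Sycp1 (0.61), while the ubiquitin hydrolase Uchl1 had -2.50. Sycp1 and Sycp3 lost their calls when each array was centered on its median, and Sycp1 also without Leydig replicate 3. Of 10 macrophage markers that passed the signal limit, of 14 listed, the mean level was 6.15 to 6.26 in the Leydig IPs against 6.33 to 6.42 in the Sertoli IPs, against 6.97 to 7.15 in the inputs. Their median log2 difference was -0.01, and 1 was called in Leydig (0.72) and 1 in Sertoli IPs. The Sertoli call was the macrophage receptor Mrc1, which enters these mean levels. It read 8.63, 8.66 and 9.24 in the Leydig IPs against 11.26 to 11.62 in the Sertoli IPs (6.10-fold). Mrc1 is among the genes that the study named as Sertoli receptors. Endothelial markers gave 6.15 to 6.26 and 6.29 to 6.42, with 1 of 8 called. Peritubular myoid markers were at 7.59 to 7.70 and 8.04 to 8.23, with Myl9 (log2 -1.91) and Acta2 (-0.71) higher in the Sertoli IPs. Markers of interstitial stroma went the other way, at 7.89 to 8.05 in the Leydig IPs against 6.71 to 7.04 in the Sertoli IPs, and 6 of 9 were called, among them the nuclear receptor Nr2f2 (3.27), the receptor Pdgfra (2.04), the proteoglycan decorin Dcn (1.79) and the collagen chain Col1a2 (1.43). Whether stromal RNA contributed to the Leydig IPs was not tested.

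Genes of steroid synthesis were higher in the Leydig IPs, and the enzymes from Cyp11a1 to Hsd17b3 separated the 2 groups of arrays completely. Of all genes tested, 57% did so. Star, which carries cholesterol into mitochondria, read 12.48, 12.73 and 12.68 in the Leydig IPs while the Sertoli IPs had a median of 8.12, a 22.0-fold difference (log2 4.46, SE 0.106, limma adjusted p = 2.21e-09). Cyp11a1, which cuts the cholesterol side chain, read 13.01, 12.83 and 13.04 against 7.77, 7.41, 7.29, 7.28 and 7.04, or 48.5-fold. The next enzymes of the path showed the same separation of the arrays, with log2 differences of 4.53 for the 3-beta-hydroxysteroid dehydrogenase Hsd3b1, 3.87 for its relative Hsd3b6, 4.20 for Cyp17a1 (18.4-fold) and 5.03 for Hsd17b3, which makes testosterone (32.7-fold). Ferredoxin Fdx1, which passes electrons to the mitochondrial P450 enzymes, had 2.85. In all, 9 of 12 tested genes of the list were called higher in the Leydig IPs and none in the Sertoli IPs (11 and 0 at an unadjusted p under 0.05), with a median log2 difference of 3.42, or 3.36 with lower groups held at the limit. The 3 others were the mitochondrial membrane protein Tspo (0.49), cytochrome b5 Cyb5a (0.44) and the reductase Srd5a3 (0.11). Cyp21a1, a 21-hydroxylase known from the adrenal cortex, read 9.86, 9.14 and 9.68 in the Leydig IPs against 5.30 to 5.54 in the Sertoli IPs (at least 15.1-fold).

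Cholesterol supply went with it. Of 19 tested genes of cholesterol synthesis and uptake, 18 were called higher in the Leydig IPs, with a median log2 difference of 2.01, and the exception was the sterol isomerase Ebp (-0.11). The largest were the sterol reductase Tm7sf2 (3.74), which read 10.72, 10.16 and 10.55 against 6.65 to 6.79, the sterol desaturase Sc5d (3.56) and Insig1 (2.89), which holds the sterol sensor in the endoplasmic reticulum. Other steps were smaller, down to 0.88 for the synthase Hmgcs1, which was well above the signal limit in both IPs (11.56 to 12.11 in Leydig, 10.81 to 10.98 in Sertoli). Dhcr7, the reductase of the last step, read 10.80, 10.21 and 10.81 in the Leydig IPs against 8.40 to 8.69 in the Sertoli IPs (log2 2.06). Scarb1, the receptor for cholesterol in high-density lipoprotein, differed much less, at 12.11, 11.95 and 12.21 against 11.36 to 11.49 (1.58-fold), and lost its call when arrays were centered on their medians.

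The nuclear receptor NR5A1 is known to switch on steroidogenic genes. Nr5a1 itself read 10.61, 11.06 and 10.60 in the Leydig IPs against 10.02 to 10.16 in the Sertoli IPs, a 1.58-fold difference that lost its call when Leydig replicate 2 was left out (log2 0.66 with all arrays) or when arrays were centered. Promoters of the 4-fold genes were searched for its sequence CAAGGTCA on both strands, from 250 bases before to 50 bases after the start in RefSeq (GRCm38.p6). Of 414 Leydig genes 320 had a promoter in the table, and of 291 Sertoli genes 232. The motif was in 9 of 408 Leydig promoters (2.21%) and 2 of 289 Sertoli promoters (0.692%), beside 1.17% of the promoters of all tested genes and 1.56% of all 32851 in the table. None of the 15 promoters found for 12 of the 17 genes of the steroid synthesis list held it, and the promoters of Star, Tspo, Cyp17a1, Cyb5a and Scarb1 were not searched. The following windows, read 5′ to 3′ along the strand that carries the motif (in capitals), show the sequence in 5 of the Leydig promoters and in both Sertoli promoters.
Bhmt, minus strand, chr13:93637809-93637848: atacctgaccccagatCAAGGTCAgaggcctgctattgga
Dhcr7, plus strand, chr7:143823099-143823138: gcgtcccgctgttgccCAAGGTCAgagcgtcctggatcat
Lifr, minus strand, chr15:7129322-7129348: cgcgcggccagccttgCAAGGTCAccg
Pon3, plus strand, chr6:5256184-5256223: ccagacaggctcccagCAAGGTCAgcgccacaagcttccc
Tfpi, minus strand, chr2:84474125-84474164: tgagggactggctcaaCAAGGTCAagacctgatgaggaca
Chit1, minus strand, chr1:134111156-134111195: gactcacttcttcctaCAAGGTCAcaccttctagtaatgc
Tbx22, minus strand, chrX:107667819-107667858: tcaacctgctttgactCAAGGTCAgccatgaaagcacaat

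These genes were chosen for the motif after their values were seen. Bhmt, betaine-homocysteine methyltransferase, read 13.45, 13.31 and 13.42 in the Leydig IPs against 8.61 to 8.79 in the Sertoli IPs (26.4-fold), and the motif lay 74 bases before its start, counted to the first base of the motif in the direction of the gene. In Dhcr7 it lay 52 bases and in Lifr, the receptor for leukemia inhibitory factor (5.01-fold), 247 bases before the start, and in Pon3, a lactonase of the paraoxonase family (at least 42.8-fold), and Tfpi, an inhibitor of clotting (at least 10.4-fold), 26 bases after it. The other motifs were counted in the same way. The SOX sequence AACAATGG was in 5 Leydig promoters (1.23%) and 0 Sertoli promoters, against 0.676% of tested genes. The GATA sequence AGATAA was in 9.56% and 7.96%, against 7.09%, and the cyclic AMP response sequence TGACGTCA in 0 of 408 and 8 of 289 (2.77%), against 2.74%. A match is a run of letters and was not tied to binding.

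Large differences on the Leydig side were also found in enzymes, receptors and secreted proteins outside steroid synthesis. Sult1e1, the estrogen sulfotransferase, which inactivates estrogens, had the largest fitted difference, with 12.64, 12.66 and 12.58 in the Leydig IPs against 6.48, 5.43, 5.59, 6.10 and 5.97 in the Sertoli IPs (105-fold, SE of the log2 difference 0.206, limma adjusted p = 8.44e-09). Its input was also higher in the Leydig line, by 1.19 on the log2 scale (adjusted p = 0.0483), and the difference of IP to input ratios between the lines was 5.52. The carboxylesterase Ces1d (82.8-fold), the fatty acid and lipoprotein receptor Cd36 (80.9-fold) and complement component C2 (48.3-fold) also showed no overlap of the groups. The same held for the microsomal epoxide hydrolase Ephx1 (46.4-fold), the secreted fetuin Fetub (at least 51.7-fold) and Pon3. Of all genes tested, 57% showed no overlap. Aldoc, the aldolase known from brain, read 11.78, 11.77 and 11.70 against 6.36 to 6.69 (36.2-fold). Aldoc stood apart from most of glycolysis, where only Slc16a3, a lactate transporter, was also called higher in Leydig IPs among 18 genes tested.

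In some families of enzymes and protease inhibitors more tested members were called in the Leydig than in the Sertoli IPs. Of 82 measured cytochrome P450 genes 46 did not pass the signal limit, nor did 27 of 47 serpins and 4 of 21 glandular kallikreins. Without that limit the median log2 differences of these families were -0.01, -0.04 and 0.195, beside -0.08 over all genes. The Leydig and Sertoli calls were then 15 and 5 of 82, 9 and 4 of 47, and 7 and 0 of 21. Over all 19938 genes they were 1857 and 2711. Of the 36 tested cytochrome P450 genes 15 (41.7%) were called in Leydig and 3 (8.33%) in Sertoli IPs, beside 11.7% and 17.3% of all genes. The former included Cyp2j6 (log2 at least 3.17) and Cyp27a1 (3.24), a sterol hydroxylase. Of 20 serpins, inhibitors of serine proteases, 9 (45%) were called in Leydig and 3 (15%) in Sertoli IPs. They ran from Serpinb1a (at least 4.54), Serping1 (4.60), which inhibits the complement protease C1, and Serpina3n (4.00) to Serpini1 (-2.12). Serpina3n read 9.70, 11.43 and 9.65 in the Leydig IPs against 5.73 to 6.73 (SE 0.386), with Leydig replicate 2 far above the others. Of 17 glandular kallikreins, secreted serine proteases of the mouse, 7 (41.2%) were called in Leydig and none in Sertoli IPs (8 and 1 at an unadjusted p under 0.05). Klk1b24 read 11.66, 11.53 and 11.20 against 4.89 to 5.65 (at least 56.4-fold) and Klk1b22 read 11.11, 10.64 and 10.25 against 4.58 to 5.15 (at least 32.5-fold). Kallikrein genes are near-identical copies, so probe sets may share their transcripts and the members are not independent. Of 19 complement and clotting genes 8 (42.1%) were called in Leydig and 2 (10.5%) in Sertoli IPs. The former included C1s1 (at least 3.64) and C1ra (at least 2.98), the proteases that start the classical path. The latter were the inhibitor Cfi (at least 2.08-fold) and tissue factor F3 (log2 -0.87).

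Energy and defense genes differed in number as well. Of 15 genes of fatty acid oxidation, 12 were higher in Leydig IPs and none in Sertoli IPs (15 and 0 at an unadjusted p under 0.05, median log2 difference 1.41), led by the reductase Decr1 (3.11) and the dehydrogenase Acadvl (2.92), which read 10.42 to 10.45 and 7.43 to 7.59. Of 75 subunits of the respiratory chain, 42 were higher in Leydig IPs and none in Sertoli IPs (64 and 3 at an unadjusted p under 0.05), with a smaller median of 0.62 and a maximum of 2.53 for Ndufc2 of complex I. Mitochondrial ribosomal proteins did not go along, with 8 and 7 of 76 called, shares close to or under the 11.7% and 17.3% of all genes. Of the cytosolic ribosomal proteins 9 of 58 were higher in Leydig IPs and none in Sertoli IPs (28 and 3 at an unadjusted p under 0.05), a Leydig share of 15.5% beside the 11.7% of all genes, with a median of 0.20. Of 33 genes of glutathione and peroxide defense, 16 (48.5%) were higher in Leydig and 3 (9.09%) in Sertoli IPs. Nqo1, a quinone reductase, read 9.47, 9.41 and 9.56 against 4.78 to 5.29 (at least 14.3-fold), and catalase Cat 11.21, 11.22 and 11.29 against 7.96 to 8.58 (7.53-fold), while the phospholipid peroxidase Gpx4 was at like levels (means 12.09 and 12.11). On the Sertoli side stood the glutathione transferases Gstm6 (-0.86) and Gstm7 (-0.81) and the heme oxygenase Hmox1 (-0.99).

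**Figure D3:**
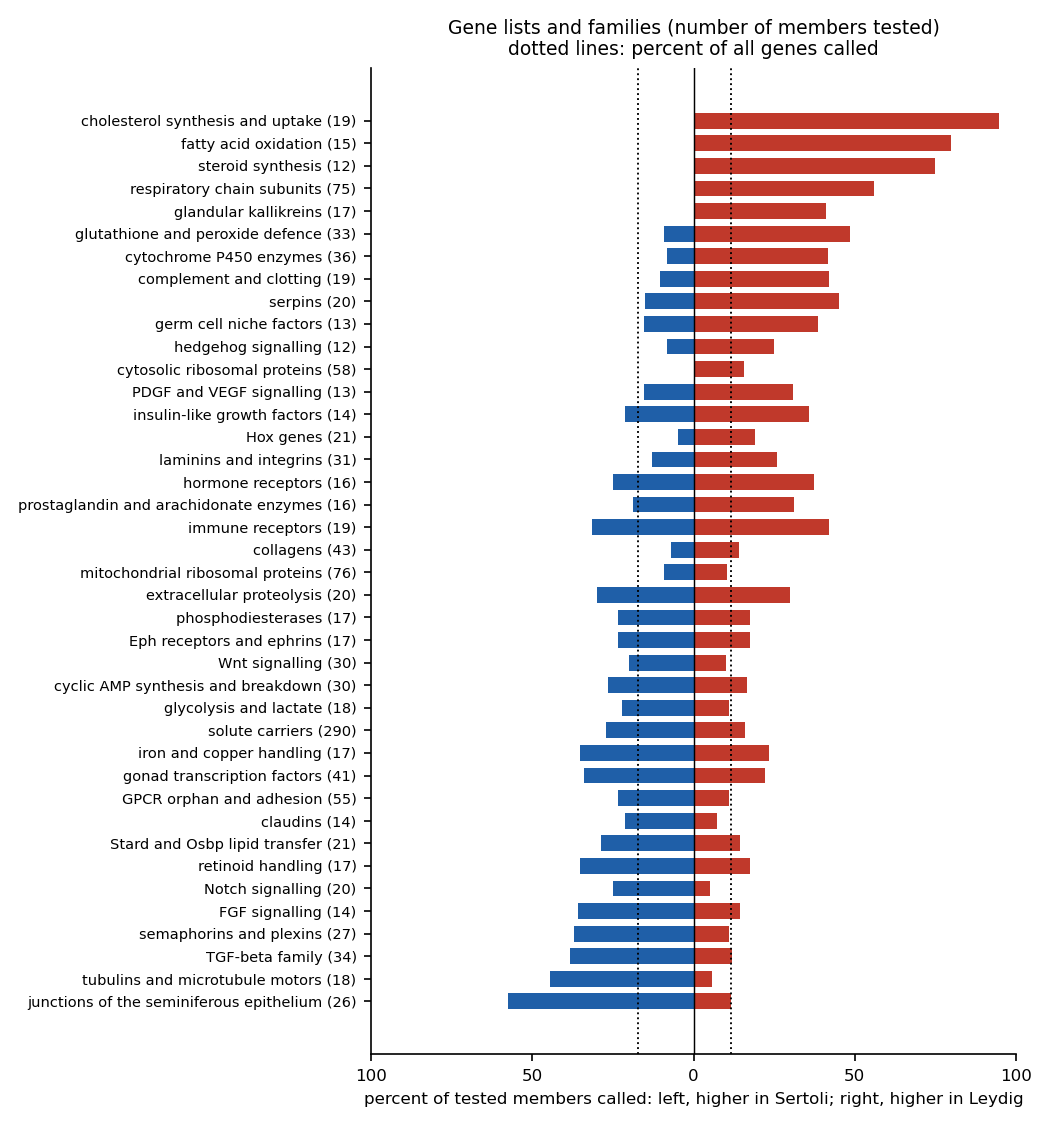
Percent of the tested members of each gene list or family (number tested in brackets) called higher in Sertoli IPs (blue, to the left) or in Leydig IPs (red, to the right), with dotted lines at the 17.3% and 11.7% of all tested genes called in each direction. Cholesterol synthesis, fatty acid oxidation, steroid synthesis, the respiratory chain, glandular kallikreins and cytosolic ribosomal proteins have no blue bar, and junctions of the seminiferous epithelium have the longest one.

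Among the function lists and families, junction genes had the largest share of calls on the Sertoli side. Of 26 tested genes of the junctions of the seminiferous epithelium, 15 (57.7%) were higher in Sertoli IPs and 3 (11.5%) in Leydig IPs. Over all genes the shares were 17.3% and 11.7%, and the median log2 difference of the list was -1.27. Ocln, a tight junction protein, read 6.57, 6.83 and 6.96 in the Leydig IPs against 9.57, 9.50, 9.47, 9.06 and 9.15 in the Sertoli IPs (5.91-fold), and Cldn11, the claudin of the blood-testis barrier, read 9.62, 9.90 and 10.24 against 11.96 to 12.14 (4.46-fold). The barrier and anchoring proteins Cldn3 (-1.75), Jam2 (-2.05), Jam3 (-1.74), cingulin Cgn (-1.95), Tjp1 (-1.32) and N-cadherin Cdh2 (-2.03) had no overlap between the groups. The same held for vinculin Vcl (-2.30), Pvr (-1.97), the actin bundler Espn (-1.44) and the laminin receptor Itga6 (-2.47). Of all genes tested, 57% had no overlap. The 3 on the Leydig side were the laminin chains Lamc3 (2.29), Lamb2 (1.12) and Lama2 (0.87). Of the others, the gap junction protein Gja1 had -0.45, beta-catenin Ctnnb1 -0.25 and integrin beta 1 (Itgb1) 0.02, with means of 10.63 and 10.61. Laminin chains as a family divided by member: Lamb1 (3.08) and Lama4 (at least 2.02) were higher in Leydig IPs and Lama1 (-2.05) in Sertoli IPs.

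The largest differences on the Sertoli side were about 10-fold. Ptprv, a receptor-type phosphatase, read 6.42, 6.19 and 6.25 in the Leydig IPs against 9.57 to 9.78 in the Sertoli IPs (10.4-fold, SE of the log2 difference 0.0809, limma adjusted p = 2.21e-09), and Cidea, a lipid droplet protein, read 6.48, 6.83 and 7.20 against 9.82 to 10.50 (10.4-fold). Mpzl2, an adhesion protein, read 4.98, 5.18 and 4.65 against 6.29, 8.60, 8.81, 8.53 and 8.47 (at least 5.64-fold). Sertoli replicate 1 was thus far below the other 4 for Mpzl2, and the input of the same number was also the lowest of its group (5.17 against 6.12 to 6.40). Tissue plasminogen activator Plat, a protease of the tubule, had 8.68-fold, heparanase Hpse 7.37-fold, and Mest, an imprinted gene, 7.21-fold. Ptprv, Cidea and Mpzl2 were also higher in the Sertoli inputs than in the Leydig inputs, by 0.92, 0.68 and 1.06 on the log2 scale, all called, and their fitted differences of ratios were -2.46, -2.69 and -2.15.

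Transcription factors of the gonad separated in both directions. Of 41 tested, 14 (34.1%) were higher in Sertoli IPs and 9 (22%) in Leydig IPs, beside 17.3% and 11.7% of all genes. The former included Sox8 (log2 -2.49), Sox4 (-2.47), Dmrt1 (-2.33), Gata1 (-2.20), Wt1 (-2.01), Nr0b1 (-1.88) and Gata6 (-1.35). The latter included Nr2f2, Tbx3 (2.26) and Osr1 (1.92). Wt1, which Sertoli cells need to keep their identity, read 9.51, 9.43 and 9.59 against 11.44 to 11.63. Gata4, a factor of both cell types, read 10.08, 10.55 and 10.02 against 10.59 to 10.71 and was not called (-0.44). Rhox5, an androgen-dependent homeobox gene of Sertoli cells named from the study's tables, read 7.40, 7.19 and 7.52 against 9.19 to 9.84 (4.45-fold). Of 21 Hox genes 4 (19%) were called in Leydig and 1 (4.76%) in Sertoli IPs, beside 11.7% and 17.3% of all genes.

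Among hormone receptors, each cell type had its own. The estrogen receptor Esr1 read 11.22, 11.27 and 11.20 in the Leydig IPs against 6.38 to 6.64 in the Sertoli IPs (26.9-fold, limma adjusted p = 4.16e-10), and the prolactin receptor Prlr read 11.63, 11.70 and 11.61 against 6.44 to 7.05 (28.6-fold). Receptors for oxytocin (Oxtr, log2 3.30), tachykinin (Tacr2, 3.41) and thyroid hormone (Thrb, at least 2.12) were also higher in the Leydig IPs. On the Sertoli side stood Fshr, the vitamin D receptor Vdr, at 7.33, 7.32 and 7.52 against a median of 10.19 (6.71-fold), the mineralocorticoid receptor Nr3c2 (-1.49) and Igf2r (-1.56), which takes up insulin-like growth factor 2. Insulin receptor Insr was at like levels, with means of 9.42 and 9.39. Of 16 tested receptors 6 (37.5%) were called in Leydig and 4 (25%) in Sertoli IPs, beside 11.7% and 17.3% of all genes. Downstream, cyclic AMP genes gave 5 (16.7%) and 8 (26.7%) of 30. The phosphodiesterase Pde8b was higher in Leydig IPs (2.94, or 7.67-fold). The cyclase Adcy2 (-1.99) and the phosphodiesterases Pde4b (-1.97) and Pde4d (-1.24) were higher in Sertoli IPs.

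Ligands and receptors of several paths were divided between the IPs. Desert hedgehog (Dhh) read 7.32, 7.27 and 7.63 in the Leydig IPs against 10.07, 9.91, 10.04, 9.84 and 9.78 in the Sertoli IPs (log2 -2.52). Its co-receptor Boc (2.40), the transducer Smo (1.54) and the receptor Ptch1 (0.70) were higher in the Leydig IPs, where Ptch1 read 9.07, 9.12 and 9.29 against 8.23 to 8.61. The target factor Gli1 had 0.06. Among platelet-derived growth factors, Pdgfc (-1.82) was higher in Sertoli and Pdgfd (at least 3.11) in Leydig IPs, Pdgfa had 0.09, and the receptor Pdgfra was higher in Leydig IPs at 10.52, 10.61 and 10.19 against 7.76 to 8.87. Vegfa (-0.90) was higher in Sertoli IPs, and Vegfb (0.81) and the receptor Nrp1 (at least 8.87-fold) in Leydig IPs.

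Of the TGF-beta family, 17 of 34 tested members were not called. On the Leydig side were 4 (11.8%) and on the Sertoli side 13 (38.2%), beside 11.7% and 17.3% of all genes. The inhibin subunits Inhbb (log2 -2.36) and Inha (-1.28), which form the hormone that holds down FSH, were on the Sertoli side. So were the binding proteins Fstl3 (-2.23) and Fst (-1.16) and the ligands Tgfb1 (-1.76), Tgfb3 (-1.61) and Amh (-1.47). The signal carriers Smad3 (-2.05) and Bmpr2 (-1.90) were there too. Amhr2, the receptor of Amh, was high in both and higher in the Sertoli IPs, at 11.75, 11.78 and 11.94 against 13.15 to 13.20 (2.53-fold). The Leydig IPs held more of the co-receptor Tgfbr3 (4.08, or 16.9-fold) and of the ligands Bmp6 (2.53) and Bmp4 (1.64). Of 20 Notch genes, 5 (25%) were called in Sertoli and 1 (5%) in Leydig IPs. Notch1 read 6.92, 7.09 and 7.06 against 8.90 to 9.08, and Notch2 (-1.55) and the target Hes1 (-1.81) went the same way. The ligand Jag1 (0.81) was higher in Leydig IPs.

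Genes of other growth factor paths were found on both sides. Igf2 read 9.20, 9.45 and 8.96 in the Leydig IPs against 6.39 to 6.86 in the Sertoli IPs (5.95-fold), the binding proteins Igfbp2 (log2 3.96) and Igfbp6 (3.02) and the adaptor Irs1 (3.15) were higher in Leydig IPs, and Igfbp3 (-1.71) and the adaptor Irs2 (-1.13) in Sertoli IPs. The fibroblast growth factor receptors Fgfr2 (3.62, or 12.3-fold) and Fgfr4 (2.48) were higher in Leydig IPs, with Fgfr1 at -0.26. The Sertoli-side calls were 5 of 14 (35.7%) in this list, among them the ligand Fgf21 (-1.14) and the inhibitor Spry4 (-1.18). Wnt5a had a mean of 9.04 in the Leydig IPs against 5.12 to 6.02 (log2 at least 3.32). Of 30 Wnt genes 3 (10%) were called in Leydig and 6 (20%) in Sertoli IPs, shares near the 11.7% and 17.3% of all genes, and the latter included the receptor Fzd4 (-1.69). Of 13 factors of the germ cell niche, 5 (38.5%) were called in Leydig and 2 (15.4%) in Sertoli IPs. The median log2 difference was 0.44, or 0.15 with lower groups held at the limit. The Leydig calls included the chemokine Cxcl12 (2.54) and Csf1 (at least 2.18), a growth factor of macrophages. Kit, the receptor of Kitl, read 11.78, 11.72 and 11.65 against 6.78 to 7.10 (26.2-fold).

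**Figure D4:**
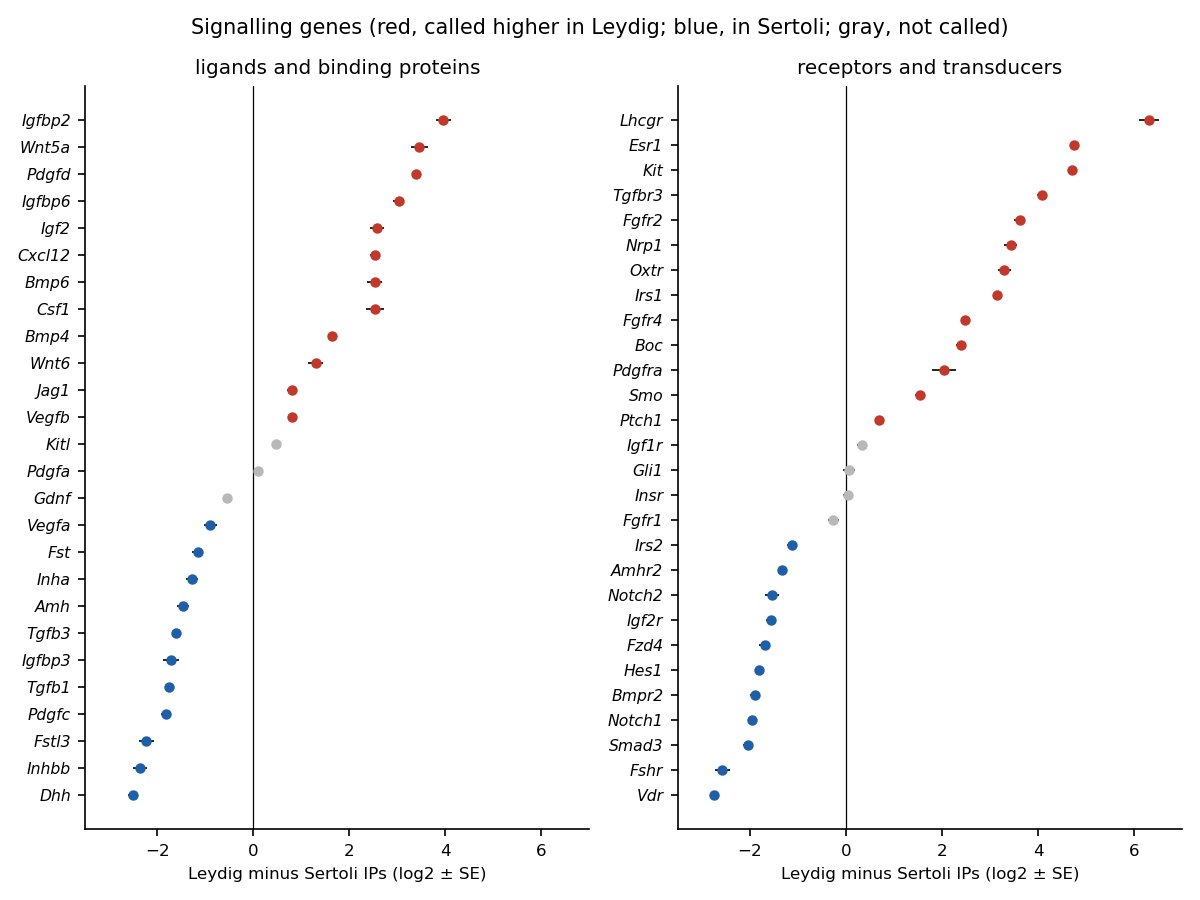
Log2 difference (Leydig minus Sertoli saline IPs, horizontal axis) of ligands and binding proteins (left) and of receptors and signal carriers (right), with bars for the standard error (n = 3 and 5), red for genes called higher in Leydig IPs, blue for those called higher in Sertoli IPs and gray for those not called. Values are as fitted, also where the lower group lay under the limit of detection. Dhh and Inhbb lie at the lower end of the ligands while Lhcgr, Esr1 and Kit lie at the upper end of the receptors. The bars are short beside the differences of the called genes, but not beside that of Insr (0.03, SE 0.09).

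Nutrient and vitamin genes also divided by member. In glucose use, hexokinase Hk2 read 9.30, 9.28 and 9.59 in the Leydig IPs against 11.58 to 11.73 in the Sertoli IPs (4.79-fold), the regulator Pfkfb3 had a log2 difference of -1.92, phosphofructokinase Pfkl -1.65, and the transporter Slc2a1 -0.67, which lost its call after quantile normalization. Later steps were at like levels, with Tpi1 at 0.00 and Pgam1 at 0.03, and lactate dehydrogenase Ldha had -0.28. Among 17 genes of retinoid handling, 6 (35.3%) were higher in Sertoli IPs and 3 (17.6%) in Leydig IPs. The former included Cyp26a1 (at least 6.26-fold), which degrades retinoic acid, the retinol transporter Stra6 (log2 -2.76) and the receptor Rara (-1.67). The latter were Dhrs3 (2.66), the receptor Rxra (1.54) and Aldh1a1 (1.11). Ceruloplasmin (Cp), a copper enzyme that oxidizes iron, read 10.32, 10.72 and 10.29 against 5.66 to 6.11 (22.7-fold), while the iron exporter Slc40a1 read 5.80, 5.81 and 5.76 against 7.91 to 8.44 (4.85-fold) and transferrin Trf was 2.59-fold higher in Sertoli IPs. Of 290 solute carriers, 79 (27.2%) were called in Sertoli and 46 (15.9%) in Leydig IPs, beside 17.3% and 11.7% of all genes. The former included the sugar transporter Slc2a12 (-2.93) and the peptide transporter Slc15a1 (-2.26), and the latter the cystine transporter Slc7a11 (4.53) and the glutamine transporter Slc38a1 (3.40).

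Semaphorins and plexins, and tubulins and microtubule motors, were more often called on the Sertoli side. Of 27 semaphorins and plexins 10 (37%) were called in Sertoli and 3 (11.1%) in Leydig IPs, beside 17.3% and 11.7% of all genes. Sema6c had -2.48, Plxnc1 -2.46 and Sema5a -2.44, the last with 6.44, 6.96 and 6.82 against 9.11 to 9.28. Plxnd1 had 2.84. Of 18 tubulins and microtubule motors 8 (44.4%) were called in Sertoli and 1 (5.56%) in Leydig IPs. The former included Tubb3 (-2.42), Map1b (-2.19) and Tuba1a (-1.77). Aquaporins split, with the water channel Aqp2 (3.23) in Leydig and Aqp8 (-2.59) in Sertoli IPs and Aqp11 at -0.15. The receptors of interferon gamma, Ifngr1 (-1.30) and Ifngr2 (-1.62), were higher in Sertoli IPs, and Il17rb (4.28), a receptor of interleukin 17 family members, in Leydig IPs. B2m, the light chain of class I antigen, read 12.32, 12.47 and 12.71 in the Leydig IPs against 7.70, 9.36, 9.42, 9.55 and 7.29 in the Sertoli IPs (log2 3.84, SE 0.521). Sertoli replicates 1 and 5 were low for B2m, and the Leydig inputs were also higher than the Sertoli inputs, by 0.97.

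The inputs show how far the 2 lines differed before any IP. Of 15461 genes tested in the saline inputs, 147 (0.951%) were called, against 4516 (29%) in the IPs. Of these input calls 34 (0.22% of genes tested) were higher in the Cyp17iCre line and 113 (0.731%) in the AMH-Cre line. Over all probe sets this balance was not kept, with 231 higher in the Cyp17iCre line and 198 in the AMH-Cre line. The count of 147 genes fell to 65 without Leydig input replicate 1 and to 78 without Leydig input replicate 3. Of the 4516 genes called in the IPs, 62 were called in the inputs, 56 in the same direction, which is 1.24% of the IP calls and 40% of the 140 input calls tested in the IPs. Vav2, a guanine nucleotide exchange factor, had the largest difference between the inputs, at 7.85 to 8.17 in the Leydig line and 10.28 to 10.49 in the Sertoli line (log2 -2.38, limma adjusted p = 6.18e-06). In the IPs it read 8.02, 8.21 and 8.11 against 9.84, 10.06, 9.99, 9.16 and 9.14, so its difference there (-1.53) was the smaller of the 2 and its difference of ratios was 0.85. For the immunoglobulin receptor Fcgr3 the differences were alike, -1.55 in the IPs and -1.52 in the inputs. Usp17ld, a deubiquitinase, was higher in the Leydig line in both, by 1.62 in the IPs and 2.16 in the inputs.

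**Figure D5:**
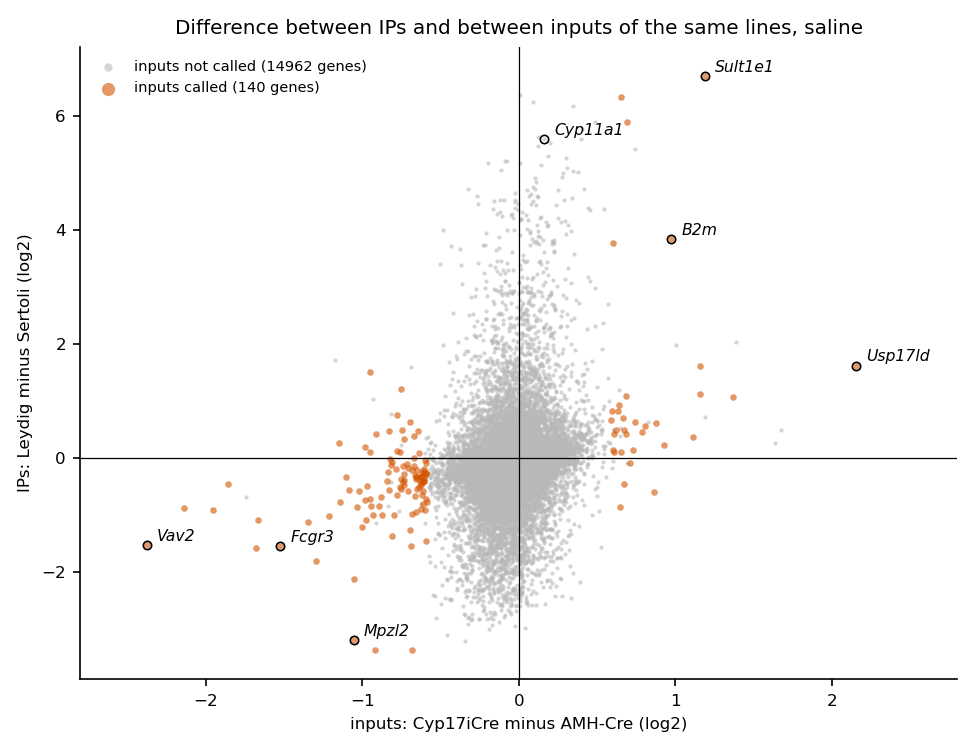
Log2 difference between the IPs (Leydig minus Sertoli, vertical axis) against that between the inputs of the same lines (Cyp17iCre minus AMH-Cre, horizontal axis) for every gene tested in both, with the 140 genes called in the inputs in orange. The gray cloud is tall and narrow, Cyp11a1 sits near 0 on the horizontal axis, and Vav2, Fcgr3 and Usp17ld lie far from it.

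Taking the inputs into account left most calls in place. The difference of IP to input ratios between the lines was called for 4277 of 15919 genes (26.9%), and 1648 of the 1822 Leydig calls and 2253 of the 2694 Sertoli calls of the IPs were among them in the same direction, while 2 were called in the opposite one. For Sptb, a spectrin, and Etl4, which the study regarded as possibly recovered without specificity in both lines, the levels were high in both IPs. Sptb read 11.49, 10.92 and 11.16 in the Leydig IPs against 10.18 to 10.61 in the Sertoli IPs, with inputs of 7.21 in both lines, and was called (1.75-fold). Etl4 read 11.22, 11.49 and 11.36 against 10.66 to 10.91 and was not called (1.48-fold).

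In the mice given the antagonist, days of treatment differed between the lines and cannot be told apart from cell type. The acyline arrays gave the same contrast in these mice. In them 4466 of 15354 genes (29.1%) were called, 11.9% higher in Leydig and 17.2% in Sertoli IPs, among them 1562 (85.7%) of the saline Leydig calls and 2337 (86.7%) of the saline Sertoli calls, and these made up 86.1% and 88.6% of the acyline calls in each direction. Only 2 genes were called in opposite directions. Of the saline Leydig calls tested there, 1788 of 1794 had the same sign, and 2680 of 2685 of the Sertoli calls. The difference between the cell types itself differed between saline and acyline for 19 of 15668 genes (0.121%). Scarb1 was 1 of these: it was higher in the Leydig IPs with saline (0.66) and lower with acyline (-1.27), where it read 10.16 and 9.98 in the Leydig IPs against 11.37 and 11.30 in the Sertoli IPs (difference of differences 1.93, SE 0.124, limma adjusted p = 0.000132). Klk1b27 had fitted differences of 5.03 with saline and 2.37 with acyline (limma adjusted p of the contrast = 0.0448). Its Sertoli IPs lay under the limit of detection in both (means 5.27 and 5.15). The steroid genes Star (4.66), Cyp11a1 (fitted 6.56) and Cyp17a1 (5.45) and the Sertoli genes Ptprv (-3.41), Ocln (-3.12) and Dmrt1 (-2.27) were all called in the acyline arrays in the same direction as in saline. For Cyp11a1 the mean of the Sertoli acyline IPs (5.57) lay under the limit of detection.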

How the data were processed

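From 100 ng of RNA per sample the authors made labeled target for Affymetrix Mouse Gene 1.0 ST arrays (32 in the series), normalized the arrays with RMA (named in the submitters' processing notes) and deposited log2 values for 35556 probe sets. The version of RMA and which arrays were normalized together are not given in the sources used here. Of the probe sets, 21789 name 1 gene symbol, 1621 several, and 12146 are not listed in the probe table; 122 of these, for 110 genes such as Lhcgr, were named through the study's own tables, from which no value was taken, and stay out of the list counts. Symbols were compared with RefSeq (21698 matched, 0 changed). For each gene the probe set with the highest mean over the 8 IPs was used.

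Probe sets with a linear signal over 50 in at least 1 array of a fit (log2 5.64) were tested with limma 3.58.1 in R 4.3.3, and p was adjusted by the Benjamini-Hochberg method over all probe sets of a comparison. The fits were the 8 saline IPs (6 residual degrees of freedom), the 8 saline inputs, the 16 saline arrays for the difference of IP to input ratios, the 4 acyline IPs (2 degrees of freedom) and, for saline against acyline, 12 IPs. Lists (50) are described by counts and medians, and no list was tested. Over probe sets, 6523 of 24671 (26.4%) were called in the saline IPs and 429 of 24513 (1.75%) in the inputs. The members and lists were chosen with earlier results of these data known. Named are members of the lists, the 20 called genes with the largest differences in each direction, genes the study names, the 10 largest input differences and list members at like levels; genes named for a promoter motif were chosen after their values were seen. Promoters are RefSeq sequences on GRCm38.p6, and figures were drawn with Python 3.11.15 and matplotlib 3.10.9. The test was checked on simulated data.

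Whether equal replicate numbers pair the samples was examined through the deviations of same-numbered Leydig and Sertoli IPs, which correlated at -0.0417, -0.0762 and 0.027, so no pairing was used between the lines. Same-numbered IPs and inputs, which may come from 1 homogenate, correlated at 0.0351 to 0.147 (Leydig) and -0.0188 to 0.162 (Sertoli), and a block of line and number was an alternative for the ratios. Alternatives were no signal filter, arrays centered on their medians, quantile normalization, an ordinary contrast, unadjusted p, other thresholds, wider fits, a replicate block, Sertoli replicates 1 to 3 only, and each array left out. Some genes are not reported here.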

Additional observations from a re-analysis of the deposited data

Results flagged for a closer look

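For 13 of 219 named genes, 1 of the 5 Sertoli saline IPs stood apart from the other 4 by Dixon's criterion (gap over range above 0.71), and chance alone puts about 1 in 20 such groups past it. Of these, 7 concerned Sertoli replicate 1. It was low for Mpzl2 (6.29, others 8.47 to 8.81) and Smad3 (9.62, others 9.84 to 9.93), and high for the glutathione transferase Gstm6 (11.28, others 10.86 to 10.9), Jam2 (10.32, others 10.09 to 10.14), Pdgfc (9.74, others 9.31 to 9.42), Slc40a1 (8.44, others 7.91 to 8.03) and Usp17ld (9.61, others 8.62 to 8.9). Replicate 2 was high for Amhr2 (13.20, others 13.15 to 13.16) and low for Lamb1 (6.17, others 6.42 to 6.47). Replicate 3 was low for Nrp1 (5.11, others 5.37 to 5.46) and high for Tfpi (5.55, others 5.3 to 5.35), replicate 4 was high for Cd36 (6.71, others 5.79 to 6.01), and replicate 5 for Bmp4 (5.85, others 5.58 to 5.64). None of these genes lost its call when any single array was left out.

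For 5 named genes the difference between Leydig and Sertoli IPs itself differed between saline and acyline by limma's contrast of differences. Scarb1 had 1.93 and Klk1b27 2.66 on the log2 scale, as given above. The difference grew with acyline for the protease inhibitors Serpinb9 (fitted 2.83 with saline, 4.04 with acyline, contrast -1.22, adjusted p = 0.0306) and Serpinb6b (1.76 and 3.35, contrast -1.58, adjusted p = 0.0184), and shrank for the plasmin inhibitor Serpinf2 (1.84 and 0.43, contrast 1.41, adjusted p = 0.0146). For Serpinb9 the Sertoli IPs lay under the limit of detection with saline and with acyline (means 5.19 and 5.00).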

How the results depend on the processing

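Against 4516 genes called in the saline IPs (1822 Leydig, 2694 Sertoli), a threshold of 2-fold left 2468 (1052 and 1416) and the adjusted p alone gave 8881 (3287 and 5594). Every other alternative gave between 4435 and 4752, leaving out single arrays gave 4483 to 4576 (1794 to 1851 and 2658 to 2754), and no gene called in the main setting was called in the opposite direction under any of them. Of the named genes, 4 lost their call when arrays were centered on their medians (Scarb1, Nr5a1, Sycp1 and Sycp3), 1 after quantile normalization (Slc2a1), Nr5a1 without Leydig replicate 2, Sycp1 without Leydig replicate 3, and 18 at 2-fold. A call was gained by 1 named gene on centering, 3 after quantile normalization, 12 by adjusted p alone, and 1 or 2 without some single arrays. The inputs were less stable, with 147 calls (34 in the Leydig line, 113 in the Sertoli line) against 94 (12 and 82) with an ordinary contrast, 27 (6 and 21) at 2-fold, 1093 (212 and 881) by adjusted p alone, and 65 to 162 (10 to 40 and 53 to 122) with single arrays left out. The lowest were 65 without Leydig input replicate 1 and 78 without Leydig input replicate 3. The Leydig-line calls alone fell to 19 without Sertoli input replicate 2, 22 without Sertoli input replicate 5, 12 without Leydig input replicate 1 and 13 without Leydig input replicate 2. For the difference of ratios, 2-fold left 2363 (1088 and 1275) of 4277, and single arrays left out gave 4252 to 4316. In the acyline IPs the range was 4144 to 4595 around 4466. The cause of these shifts was not tested, apart from the thresholds themselves. With the replicate number as a block the counts were 4675 (saline IPs), 164 (inputs), 4279 (ratios) and 4480 (acyline IPs), and no named gene changed its call in the saline IPs, although the numbers do not pair the 2 lines and, for the ratios, the block was that of line and number. In all comparisons the number of arrays limits the precision.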

Other observations

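Enzymes of prostaglandin and arachidonate metabolism divided between the IPs. Of 16 tested genes, 5 (31.2%) were called in Leydig and 3 (18.8%) in Sertoli IPs. The Leydig IPs held more of the prostaglandin E synthase Ptges (log2 difference 2.32), of Hpgd (2.12), which inactivates prostaglandins, and of the prostaglandin D synthase Ptgds (1.79), and the Sertoli IPs more of the lipoxygenase Alox12 (-2.40) and the phospholipase Pla2g7 (-2.37). Of 43 collagens 6 (14%) were called in Leydig and 3 (6.98%) in Sertoli IPs, beside 11.7% and 17.3% of all genes. Of 17 Eph receptors and ephrins 3 (17.6%) and 4 (23.5%) were called. Of 21 lipid transfer genes of the Stard and Osbp families, 3 (14.3%) were called in Leydig IPs, among them Star, and 6 (28.6%) in Sertoli IPs. Of 55 orphan and adhesion G protein-coupled receptors the counts were 6 (10.9%) and 13 (23.6%). Carboxylesterases gave 1 of 7, Ces1d, in Leydig IPs.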
